A study of Mus musculus with 8 samples.

Results

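The transcripts described here are 10 genes used as markers of connective tissue and vessel wall cells in skeletal muscle: the growth factor receptors Pdgfra and Pdgfrb, the cell surface proteoglycan Cspg4, the secreted products Cxcl14, Dpt, Dcn and Lum, and the contractile genes Myh11, Acta2 and Tagln. They were taken by symbol from a list of fibro-adipogenic, pericyte and smooth muscle markers. All 10 were found among the 17847 genes of the table, and all 10 passed the filter that left 17801 genes for testing. Their levels were compared between 4 Cox10-/- and 4 wild-type libraries of muscle stem cells, sorted from skeletal muscle of C57Bl/6 mice. Per the labels, tamoxifen was given to both genotypes as 1 intraperitoneal injection (200 mg/kg), and cells were taken after 2 days. In the Cox10-/- animals a floxed Cox10 allele was deleted by a tamoxifen-dependent Cre recombinase under Pax7, which acts in Pax7-expressing cells. The sources used here do not say whether the wild-type animals carried Cre or a floxed allele. The sort kept CD34 positive cells and removed those with CD31, CD45, Sca1 or the dead-cell dye DAPI.

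Fibro-adipogenic progenitors are the resident fibroblasts of muscle, which carry PDGF receptor alpha and Sca1 and secrete much of its matrix. Pericytes and vascular smooth muscle cells, together called mural cells, wrap small and large vessels, and PDGF receptor beta and the proteoglycan NG2 (Cspg4) are among their standard markers. Smooth muscle cells contract with the myosin heavy chain Myh11, the actin Acta2 and the actin-binding protein transgelin (Tagln), genes that serum response factor and its coactivator myocardin switch on together. In these bulk libraries more cells of a type and more RNA per cell cannot be told apart.

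The 10 transcripts had no common direction in Cox10-/- libraries. Myh11, Pdgfrb, Pdgfra and Cxcl14 rose by between 1.67-fold and 2.43-fold, while Cspg4, Dpt and Acta2 fell to between 66.1% and 77.9% of wild-type. Tagln, Dcn and Lum did not pass the test. A gene was called changed at an adjusted p below 0.05, from limma with Benjamini-Hochberg adjustment over all 17801 genes. By this rule 4 of the 10 were called higher and 3 lower, where 7.58% of all genes tested were called higher and 8.51% lower (16.1% in either direction). The libraries of the genotypes did not overlap for 7 of the 10 transcripts, against 21.1% of all genes tested. The median log2 fold change of the 10 was 0.02, and that of all genes tested was -0.06. Rises made up 47.1% of all calls on the deposited scale and 58.4% after each library was centred on its median, and the 3 falls among the 10 were then 1. Levels are log2 CPM, a gene's reads relative to all reads counted in its library, and each fold change is Cox10-/- minus wild-type on that scale. A value followed by ± is a log2 fold change with its standard error over 4 libraries of each genotype, unless an SD is named.

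**Figure D1:**
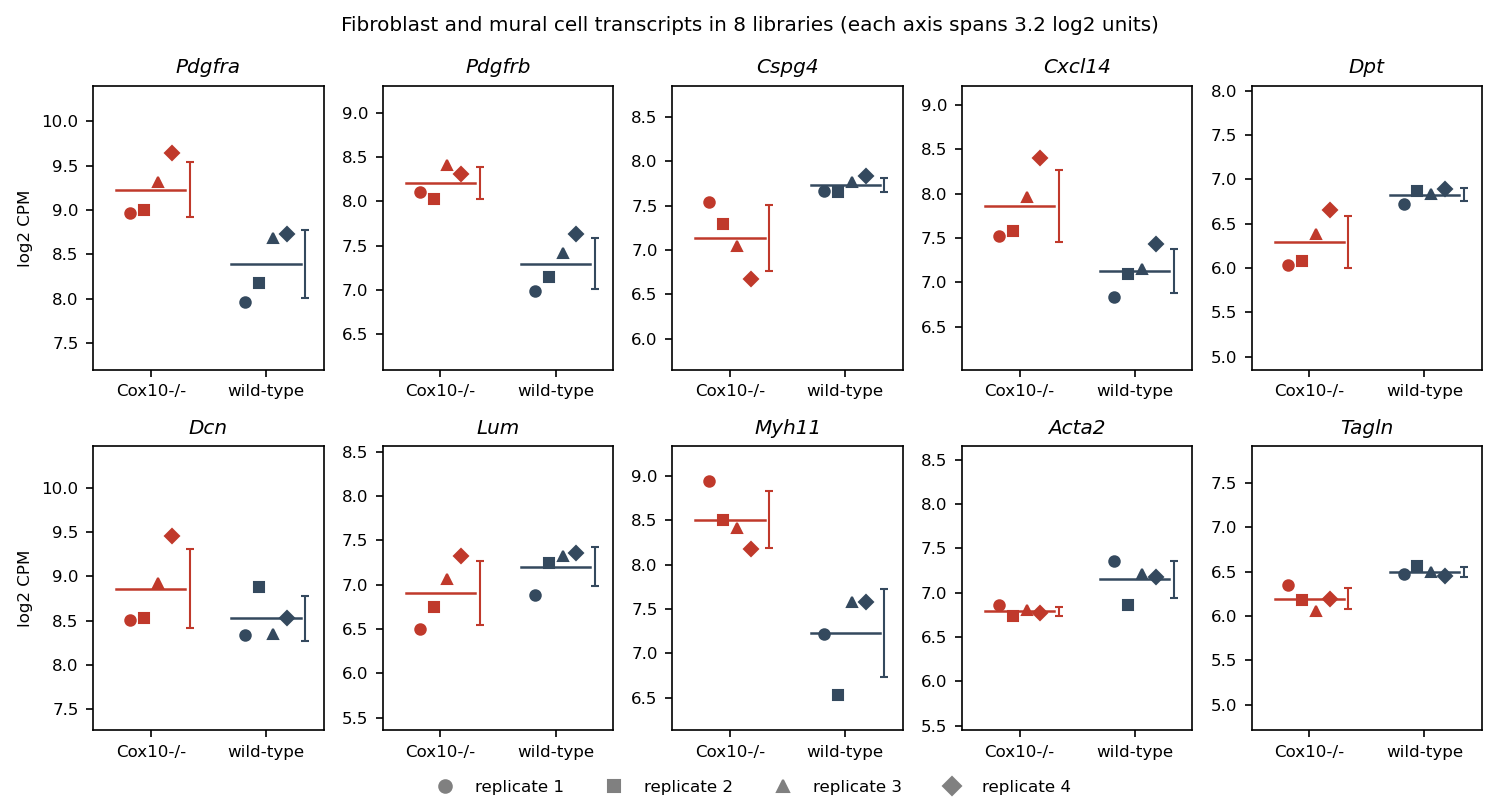
Level of each transcript (log2 CPM, vertical axis) in the 4 Cox10-/- and 4 wild-type libraries; symbols mark replicate numbers, horizontal lines the means and bars 1 SD on either side (n = 4). Pdgfra, Pdgfrb, Cxcl14 and Myh11 lay higher in all 4 Cox10-/- libraries than in any wild-type library, Cspg4, Dpt and Tagln lay lower in all 4, and Acta2, Dcn and Lum overlapped.

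Reads counted in genes numbered 1693349 to 4650051 per library, and the 10 transcripts had between 124 and 2227 reads each in every library, so none lay near the lower limit of the table. Within 1 genotype, some of the 10 transcripts, such as Pdgfra, differed between replicates 1 and 2 on one side and replicates 3 and 4 on the other. The labels name no batch, and they do not tie each library to a separate animal, so that p-values describe only the spread among these libraries. Cox10 itself was at 49, 56, 35 and 7 reads in Cox10-/- replicates 1 to 4 and at 56, 23, 81 and 52 reads in wild-type replicates 1 to 4, a log2 difference of -0.62 ± 0.34 (SE, n = 4 each) that limma did not call (adjusted p = 0.246). Without Cox10-/- replicate 4 the Cox10 difference was -0.24, and it was -0.10 in replicates 1 and 2 alone and -1.14 in replicates 3 and 4 alone.

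Both PDGF receptors rose. Pdgfra binds PDGF-A and PDGF-C among other ligands and marks fibro-adipogenic progenitors. It stood at 8.97, 9.0, 9.32 and 9.64 log2 CPM in Cox10-/- replicates 1 to 4, against 7.96, 8.18, 8.69 and 8.73 in wild-type replicates 1 to 4. The lowest Cox10-/- library was above the highest wild-type one, and in both genotypes replicates 3 and 4 were the higher pair. The log2 fold change was 0.84 ± 0.19 (SE, n = 4 each; 95% interval 0.44 to 1.25; limma adjusted p = 0.00945), with an exact two-sided permutation p of 0.0286, the smallest that 70 assignments of 8 libraries allow. In the GENCODE M21 annotation Pdgfra shares 456 exonic bases with the antisense gene Gm42802, which was not analysed here. Without a stated strand setting, reads in those shared bases cannot be assigned to either gene. Pdgfrb is a receptor of PDGF-B and PDGF-D on mural cells and many fibroblasts. It stood at 8.10, 8.02, 8.41 and 8.31 log2 CPM in Cox10-/- libraries, against 6.99, 7.15, 7.42 and 7.63 in wild-type libraries. Its values did not overlap either, and its log2 fold change was 0.91 ± 0.14 (SE, n = 4 each; 95% interval 0.61 to 1.21; limma adjusted p = 9.6e-04). Pdgfrb kept its call in every alternative run, while the call of Pdgfra was lost when the means of replicates 1 and 2 and of 3 and 4 were used as 2 samples per genotype (adjusted p = 0.0512, the highest of its alternatives, which began at 3.0e-05).

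Cspg4 went the other way. It encodes NG2, a transmembrane proteoglycan that binds PDGF-A and marks pericytes, smooth muscle cells and some progenitors. Cox10-/- replicates 1 to 4 held 7.54, 7.29, 7.04 and 6.67 log2 CPM, against 7.67, 7.66, 7.77 and 7.83 in wild-type replicates 1 to 4. All 4 Cox10-/- libraries were below the wild-type range, replicates 3 and 4 the furthest, while the wild-type libraries lay within a narrow band. The log2 fold change was -0.60 ± 0.15 (SE, n = 4 each; limma adjusted p = 0.0194). It was -0.25 in replicates 1 and 2 alone and -0.94 in replicates 3 and 4 alone. The call was lost without Cox10-/- replicate 3 (adjusted p = 0.0604), without a variance trend (0.0729) and with 2 means per genotype (0.0996), over a range of 0.00447 to 0.0996 among its alternatives.

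Of the 10 genes listed as PDGF ligands and signalling partners, 2 were higher, 1 was lower and 7 were not called. The one that fell was the ligand Pdgfa, at 5.58, 5.35, 5.21 and 5.10 log2 CPM in Cox10-/- libraries and 6.02, 5.80, 5.99 and 5.93 in wild-type libraries. Its values did not overlap, and its log2 fold change was -0.63 ± 0.13 (SE, n = 4 each; limma adjusted p = 0.00594). Nrp1, a coreceptor that also binds VEGF and semaphorins, rose by 0.53 ± 0.11 (adjusted p = 0.00551). With 2 means per genotype both calls were lost (0.0945 for each). Pdgfb (-0.60 ± 0.52), Pdgfc (-0.03 ± 0.19) and Pdgfd (-0.17 ± 0.20) were not called, and Pdgfb had 37 reads or fewer in every library.

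The 4 secreted products of fibroblasts did not move together. Cxcl14, a chemokine expressed by fibro-adipogenic progenitors, stood at 7.52, 7.58, 7.96 and 8.40 log2 CPM in Cox10-/- replicates 1 to 4, against 6.83, 7.10, 7.15 and 7.43 in wild-type replicates 1 to 4. The genotypes were only narrowly separated, with Cox10-/- replicate 1 just above wild-type replicate 4, and replicate 4 was the highest of each genotype. The log2 fold change was 0.74 ± 0.18 (SE, n = 4 each; limma adjusted p = 0.0167). The call was lost without Cox10-/- replicate 3 (0.0516), without wild-type replicate 1 (0.0556), without a variance trend (0.0666) and with 2 means per genotype (0.0656), and its alternatives began at 4.8e-04.

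Dpt encodes dermatopontin, a small matrix protein that binds decorin and helps collagen fibrils form. It held 6.04, 6.08, 6.39 and 6.66 log2 CPM in Cox10-/- libraries, against 6.72, 6.87, 6.84 and 6.89 in wild-type libraries. Every Cox10-/- library was below every wild-type one, with Cox10-/- replicate 4 just below the lowest of them. The log2 fold change was -0.54 ± 0.13 (SE, n = 4 each; limma adjusted p = 0.0171). The call was lost without Cox10-/- replicate 2 (0.0502), after median centring (0.106), without a variance trend (0.0616) and with 2 means per genotype (0.13, the highest in a range from 0.00291).

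Dcn and Lum encode decorin and lumican, small leucine-rich proteoglycans that bind collagen fibrils, and their genes are next to each other on chromosome 10 in RefSeq's GRCm38.p6. Dcn stood at 8.51, 8.53, 8.93 and 9.46 log2 CPM in Cox10-/- libraries, against 8.34, 8.88, 8.35 and 8.53 in wild-type libraries. The ranges overlapped, and its log2 difference of 0.33 ± 0.19 was not called (95% interval -0.09 to 0.75; limma adjusted p = 0.265). It was -0.09 in replicates 1 and 2 alone and 0.76 in replicates 3 and 4 alone. Lum held 6.50, 6.75, 7.07 and 7.32 log2 CPM in Cox10-/- libraries and 6.88, 7.25, 7.32 and 7.36 in wild-type libraries, with overlapping ranges and an uncalled difference of -0.29 ± 0.17 (95% interval -0.65 to 0.07; limma adjusted p = 0.256). Of 14 other genes listed as small leucine-rich proteoglycans, 1 was higher and 13 were not called. The one that rose was Omd, osteomodulin, by 1.07 ± 0.12 (adjusted p = 1.6e-04), at 5.97, 5.94, 6.23 and 6.33 log2 CPM in Cox10-/- libraries and 4.99, 5.05, 4.97 and 5.19 in wild-type libraries. Ogn (0.28 ± 0.15) and Bgn (0.29 ± 0.17) were not called.

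**Figure D2:**
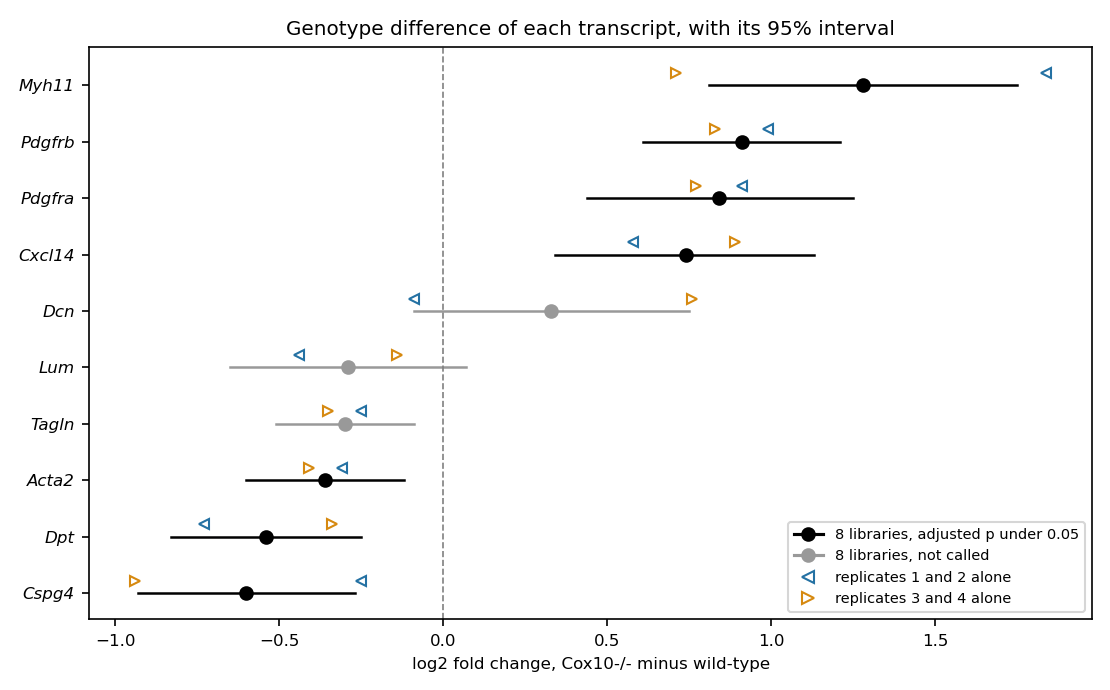
Log2 fold change of each transcript (horizontal axis, Cox10-/- minus wild-type) with its 95% interval from the limma fit to 8 libraries; black marks called transcripts, grey those not called, and open triangles the differences within replicates 1 and 2 and within replicates 3 and 4. Only Dcn had differences of opposite sign in the pairs of replicates (-0.09 and 0.76), and Myh11 had the widest gap between them (1.84 and 0.71).

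Of the 44 genes in the wider list of fibroblast and fibro-adipogenic markers, 7 were higher, 2 were lower and 35 were not called, with a median log2 fold change of 0.11. The called share was 20.5%, near the 16.1% of all genes tested. The main fibrillar collagen genes were not called: Col1a1 differed by 0.18 ± 0.24 and Col3a1 by 0.05 ± 0.19, and without Cox10-/- replicate 4 the sign of both turned (-0.07 and -0.16). The laminin chain gene Lamc3 rose by 2.36 ± 0.27 (limma adjusted p = 1.5e-04) and Lox, the lysyl oxidase that cross-links collagen and elastin, by 1.09 ± 0.23 (adjusted p = 0.00757). Loxl1, another enzyme of that family, fell by 0.83 ± 0.14 (adjusted p = 0.0018), and Thy1, a surface protein of many fibroblasts, by 1.07 ± 0.19 (adjusted p = 0.0025). These 4 genes kept their calls in every fit run. Among 10 tendon genes Scx, the transcription factor of tendon cells, fell by 1.92 ± 0.27 (adjusted p = 5.5e-04) and the other 9 were not called.

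Among the smooth muscle transcripts, Myh11 rose while Acta2 fell. Myh11 stood at 8.94, 8.50, 8.41 and 8.18 log2 CPM in Cox10-/- replicates 1 to 4, against 7.22, 6.53, 7.58 and 7.58 in wild-type replicates 1 to 4. All Cox10-/- libraries were above all wild-type ones, and replicate 1 was the highest of them. Its log2 fold change was the largest of the 10, 1.28 ± 0.22 (SE, n = 4 each; 95% interval 0.81 to 1.75; adjusted p = 0.00207 by limma; two-sided exact p = 0.0286). It kept its call in every alternative run, with a difference of 1.84 in replicates 1 and 2 alone and 0.71 in replicates 3 and 4 alone.

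Acta2, smooth muscle alpha-actin, held 6.86, 6.74, 6.80 and 6.77 log2 CPM in Cox10-/- libraries, against 7.36, 6.86, 7.21 and 7.18 in wild-type libraries. Cox10-/- replicate 1 and wild-type replicate 2 were equal at 6.86, and the other wild-type libraries were above all Cox10-/- ones. The log2 fold change of -0.36 ± 0.11 was called (SE, n = 4 each; limma adjusted p = 0.0403), but 7 of the 8 fits without 1 library lost that call. The adjusted p was 0.055, 0.0913, 0.0913 and 0.068 without Cox10-/- replicates 1 to 4 and 0.126, 0.0971 and 0.0844 without wild-type replicates 1, 3 and 4, while without wild-type replicate 2 it was 0.00662. The call was also lost after median centring (0.12), after upper-quartile centring (0.0513) and without a variance trend (0.109), and with 2 means per genotype the adjusted p was 0.221, the highest of its alternatives. The actin genes share nearly identical coding sequences, and the sources used here do not say how reads matching more than 1 of them were counted.

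Tagln stood at 6.35, 6.18, 6.06 and 6.19 log2 CPM in Cox10-/- libraries and 6.47, 6.57, 6.50 and 6.45 in wild-type libraries. All Cox10-/- libraries were below all wild-type ones, and the log2 difference of -0.30 ± 0.10 just missed the threshold (SE, n = 4 each; adjusted p = 0.0505 by limma; two-sided exact p = 0.0286). It passed when Cox10-/- replicate 1 was left out (0.0363), when the split of replicates 1 and 2 from 3 and 4 was a covariate (0.0291) and in a test of whole reads by voom (0.046), over a range of 0.0291 to 0.35 among its alternatives. In the GENCODE M21 annotation Tagln shares 1241 exonic bases with the antisense gene Gm48529, which was not analysed here. It also shares 108 exonic bases with Pcsk7 on the other strand. Without a stated strand setting, reads in these bases cannot be told apart. Pcsk7 itself lay between 5.65 and 5.91 log2 CPM in Cox10-/- libraries and between 5.69 and 5.95 in wild-type libraries.

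The regulator of this gene group was measured as well. Myocd, which encodes myocardin, had 65, 38, 33 and 11 reads in Cox10-/- replicates 1 to 4 and 8, 4, 18 and 17 reads in wild-type replicates 1 to 4. On the scale of log2 CPM that is 3.91, 3.13, 3.41 and 2.70 in Cox10-/- libraries and 1.17, 0.90, 1.95 and 2.08 in wild-type libraries, with no overlap. It rose by 1.76 ± 0.36 (SE, n = 4 each; limma adjusted p = 0.00625). Srf was not called (-0.33 ± 0.15; adjusted p = 0.162), though it passed with the split of replicates 1 and 2 from 3 and 4 as a covariate (0.0235, against 0.403 with 2 means per genotype). Of the 19 genes listed as regulators of this pathway 3 were higher, 3 lower and 13 not called. Tgfb1, which encodes the growth factor that activates smooth muscle genes in many cells, rose by 0.78 ± 0.11 (adjusted p = 4.5e-04).

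The binding site of serum response factor is the CArG box, and the promoter sequences below are shown because they hold it, or a near match, in Acta2, in Srf itself and in a myosin light chain gene. The stretches come from RefSeq windows of build GRCm38.p6, in which 5 of the 10 transcripts were found (Acta2, Cspg4, Cxcl14, Dpt and Pdgfra), and only the 250 bases before the annotated start were searched. The consensus reads the same on both strands, and the boxes found did not overlap. Capitals mark a CArG box, or one with a single C or G in its A/T core. The Acta2 stretch is chr19:34255383-34255472 on the minus strand, that of Srf is chr17:46556200-46556259 on the minus strand, and that of the light chain gene Myl9 is chr2:156775288-156775389 on the plus strand. All are written 5′ to 3′ along the gene.
Acta2: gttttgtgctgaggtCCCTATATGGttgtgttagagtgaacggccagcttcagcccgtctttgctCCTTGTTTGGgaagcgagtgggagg
Srf: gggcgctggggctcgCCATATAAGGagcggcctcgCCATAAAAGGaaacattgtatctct
Myl9: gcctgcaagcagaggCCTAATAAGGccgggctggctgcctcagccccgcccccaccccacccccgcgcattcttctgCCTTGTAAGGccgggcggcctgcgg

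Acta2 held 2 boxes, each with 1 substitution in its core, Srf held 2 exact boxes and Myl9 held 1 of each kind. Of all 32851 promoter windows 1.47% held an exact box and 8.59% held an exact box or one with 1 substitution. Of the 34 genes with a window among the smooth muscle genes and pathway regulators listed, 9 held a box of either kind and 6 an exact one. Some genes have several windows and were counted if any of them held a box, so shares of genes and of windows are unlike measures. The genes shown were picked for their boxes, so their boxes are not a result about these lists. The windows of Cspg4, Cxcl14, Dpt and Pdgfra held neither. Myl9, at 5.28 ± 0.25 log2 CPM in Cox10-/- and 4.92 ± 0.25 in wild-type libraries (SD, n = 4 each), was not called (0.35 ± 0.17; limma adjusted p = 0.168). A match describes the letters of the window and does not show binding.

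Other smooth muscle genes also went both ways. Of 26 measured, 3 were higher, 4 lower and 19 not called, with a median of 0.15. Lmod1, leiomodin, which nucleates actin filaments, rose by 1.91 ± 0.27 (limma adjusted p = 6.2e-04), with 5.85, 5.30, 5.39 and 4.79 log2 CPM in Cox10-/- libraries and 3.34, 2.80, 3.99 and 3.58 in wild-type libraries. Synpo2, an actin-bundling protein, rose by 0.75 ± 0.16 (adjusted p = 0.00706; 0.0575 with 2 means per genotype, from 3.1e-04 among its alternatives). Nexn, which encodes the actin-binding nexilin, fell by 0.89 ± 0.12 (adjusted p = 3.9e-04) and Itga8, an integrin chain, by 0.82 ± 0.11 (adjusted p = 4.6e-04). The contractile genes Smtn (0.01 ± 0.13), Mylk (0.23 ± 0.20) and Tpm1 (-0.04 ± 0.11) were not called.

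Pericyte markers showed 3 rises, 4 falls and 12 uncalled genes among 19 measured. The T-box factor gene Tbx18 rose by 0.79 ± 0.12 (limma adjusted p = 7.1e-04). Rgs5, a standard pericyte marker, stood at 6.38, 5.85, 6.57 and 6.58 log2 CPM in Cox10-/- libraries and 6.17, 5.13, 6.08 and 5.69 in wild-type libraries, and was not called (0.58 ± 0.22; adjusted p = 0.0983), though it passed without Cox10-/- replicate 2 (0.044, against 0.331 without the shallowest library of each genotype). Notch3, a Notch receptor, fell by 2.38 ± 0.18 (adjusted p = 6.3e-06) and its target Heyl fell by 1.17 ± 0.12 (adjusted p = 4.9e-05), and the list of muscle stem cell markers holds both genes too. The other falls, not in that list, were Rgs4 (-0.89 ± 0.21, limma adjusted p = 0.013) and Angpt1 (-1.14 ± 0.33, limma adjusted p = 0.0352). Rgs4 did not overlap but lost its call with 2 means per genotype (0.0726), and Angpt1 overlapped. Without Notch3 and Heyl, the summed level of the pericyte list was 708 to 826 CPM in Cox10-/- libraries and 642 to 732 CPM in wild-type libraries, and these ranges overlapped.

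**Figure D3:**
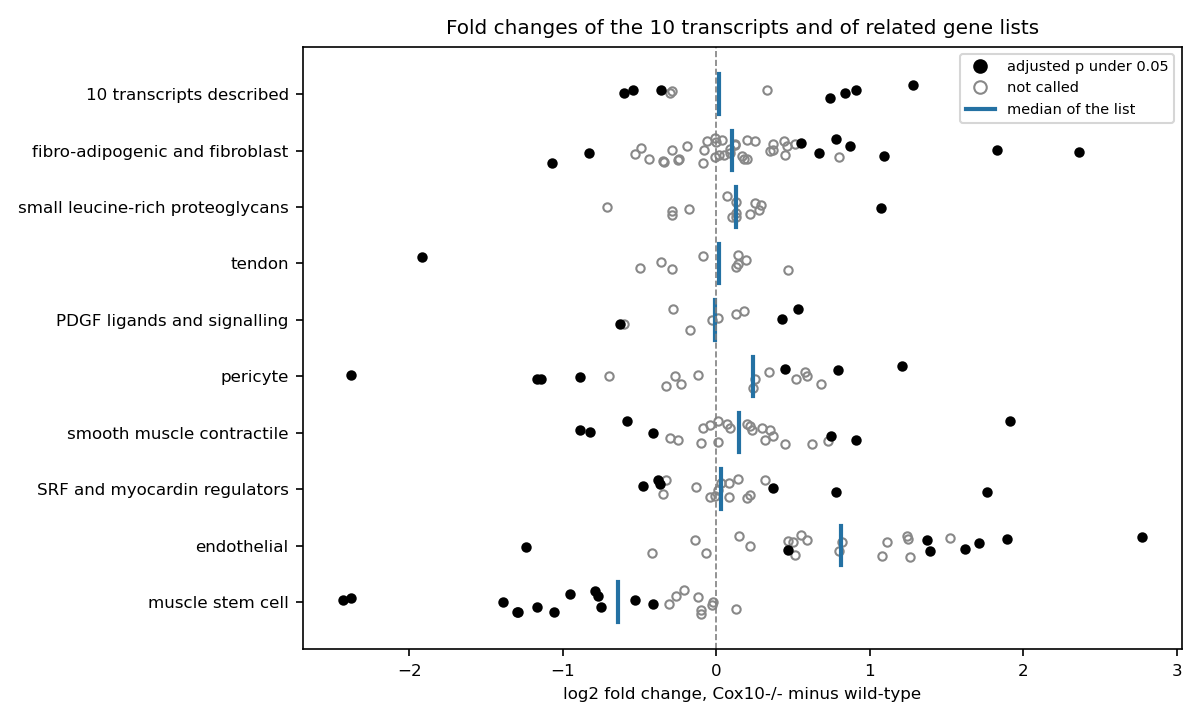
Log2 fold changes (horizontal axis, Cox10-/- minus wild-type) of the 10 transcripts and of the genes in 9 related lists, 1 point per gene, filled where limma called it and with the median of each list as a blue bar. The 10 transcripts and the fibroblast, pericyte and smooth muscle lists have called genes on both sides of 0. Their medians are 0.02, 0.11, 0.24 and 0.15. The endothelial list has a median of 0.81 and the muscle stem cell list one of -0.64. Some endothelial genes, such as Ly6c1, lay near the lower limit of the table in wild-type libraries.

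Differences between 2 transcripts of the same library do not depend on how that library was scaled. The log2 CPM of Myh11 minus that of Acta2 was 2.08, 1.76, 1.61 and 1.41 in Cox10-/- replicates 1 to 4, against -0.14, -0.33, 0.37 and 0.40 in wild-type replicates 1 to 4. The gap between the smallest Cox10-/- value and the largest wild-type value was wider than the range within either genotype. Pdgfra minus Dpt was 2.93, 2.92, 2.93 and 2.98 in Cox10-/- libraries, against 1.24, 1.31, 1.85 and 1.84 in wild-type libraries. The Cox10-/- libraries were nearly equal in this difference, although both transcripts varied between them. Pdgfrb minus Cspg4 lay between 0.56 and 1.64 in Cox10-/- libraries and between -0.68 and -0.20 in wild-type libraries. Pdgfra minus Dcn overlapped, at 0.18 to 0.47 in Cox10-/- and -0.70 to 0.34 in wild-type libraries. These pairs were chosen after the values were seen and were not tested. In each pair without overlap, every Cox10-/- value of the first transcript was above every wild-type one. No Cox10-/- value of the second transcript exceeded a wild-type one. The separation of such a pair was thus fixed by its single transcripts and is no further result.

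**Figure D4:**
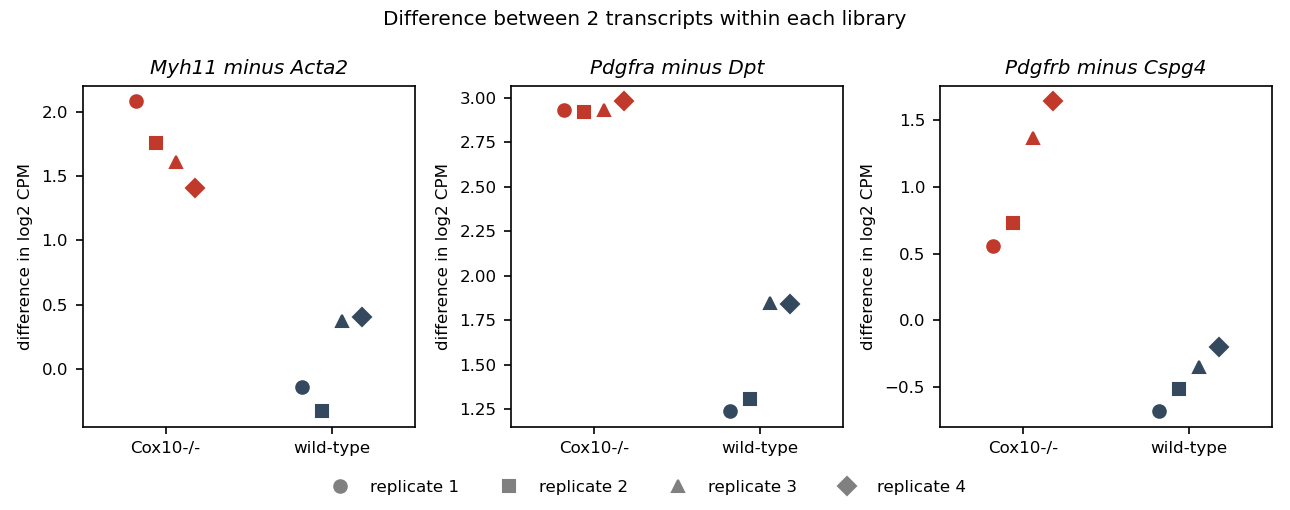
Difference in log2 CPM (vertical axis) between 2 transcripts within each of the 4 Cox10-/- and 4 wild-type libraries, with 1 symbol per replicate number. The genotypes do not overlap for Myh11 minus Acta2, Pdgfra minus Dpt or Pdgfrb minus Cspg4, which follows from the levels of the single transcripts.

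The level of these transcripts also differed between libraries of 1 genotype. Replicates 3 and 4 averaged above replicates 1 and 2 for 6 of the 10 transcripts in Cox10-/- and for 8 of the 10 in wild-type. The same count over all genes is not given, so it is no trait of these transcripts. Some of the differences counted were small, such as that of Acta2 in wild-type libraries (means of 7.11 and 7.20 log2 CPM). Cox10-/- replicate 4, the library with the fewest reads, was the highest of all 8 for Pdgfra, Cxcl14 and Dcn. The 44 other fibroblast markers summed to 13369, 13230, 18576 and 23589 CPM in Cox10-/- replicates 1 to 4, against 12962, 15729, 15053 and 17052 CPM in wild-type replicates 1 to 4. Cox10-/- replicates 3 and 4 were thus above the wild-type range and replicates 1 and 2 within it. With that split as a covariate none of the 7 calls among the 10 was lost, and Tagln was called lower as well. With 2 means per genotype instead, Myh11 and Pdgfrb were called and the other 5 calls were lost, and Tagln had an adjusted p of 0.35.

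After each genotype's mean was subtracted, the standardized deviations of each transcript were set against the mean of the other 9. Pearson's r over 8 libraries was 0.925 for Pdgfra, 0.818 for Pdgfrb, 0.784 for Cxcl14, 0.629 for Lum and 0.568 for Dpt. It was 0.26 for Dcn, 0.018 for Myh11, -0.16 for Acta2, -0.414 for Tagln and -0.535 for Cspg4. Among 15495 other genes above 0 in all 8 libraries, Vat1 (0.982), Fbln2 (0.976) and Zfp65 (0.973) were the most like the mean of all 10. These values describe 8 libraries that share their scaling and their replicate pattern.

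**Figure D5:**
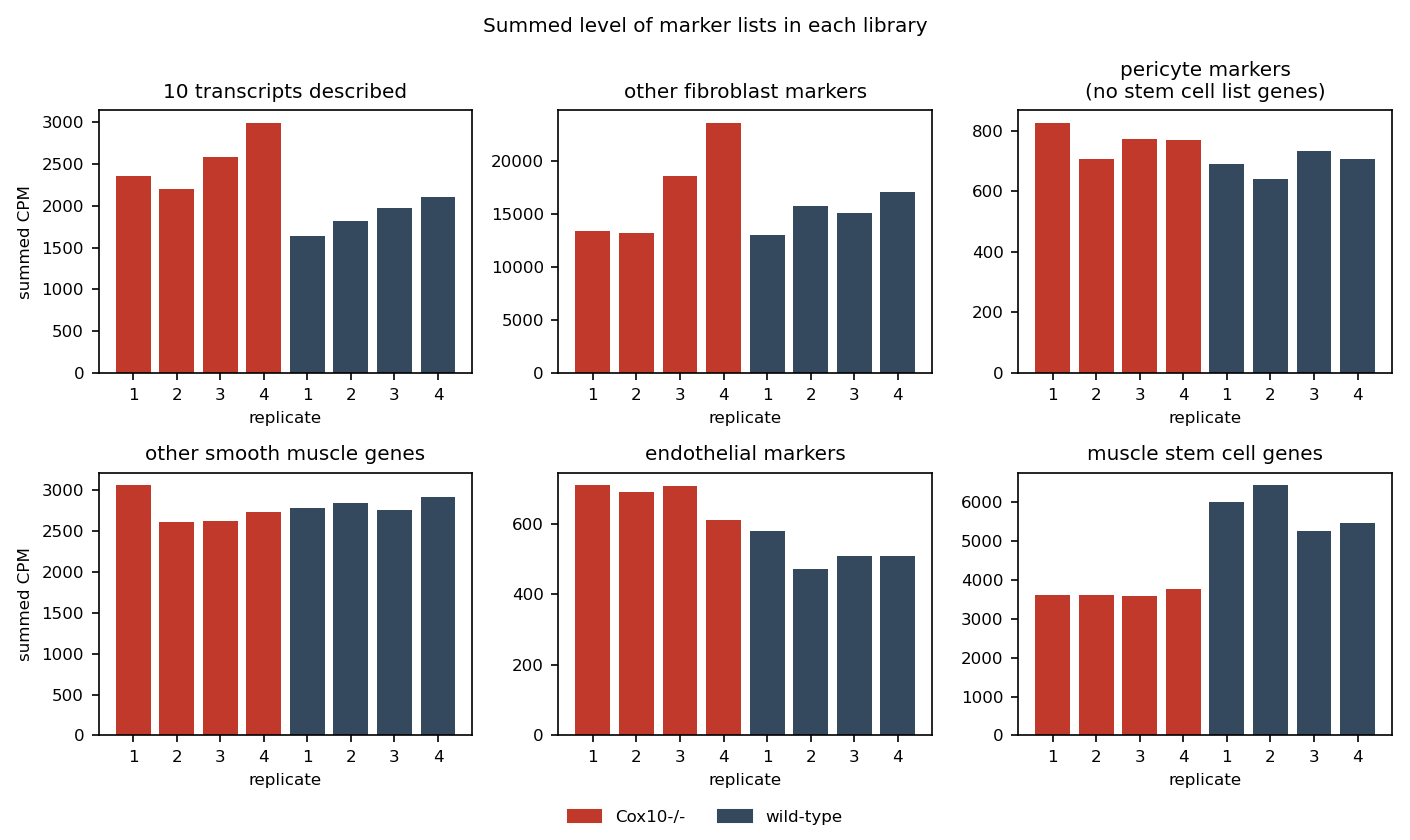
Summed level (CPM, vertical axis, from 0) of the 10 transcripts and of 5 marker lists in each library, Cox10-/- in red and wild-type in blue, by replicate number. The 10 transcripts sum to 2206 to 2992 CPM in Cox10-/- and 1643 to 2099 CPM in wild-type libraries, endothelial markers to 609 to 708 and 471 to 579 CPM, and muscle stem cell genes to 3585 to 3753 and 5253 to 6430 CPM. Abundant transcripts weigh most in a sum, such as Pdgfra (means of 613 and 344 CPM) and Myh11 (371 and 156 CPM). Of the 10 log2 fold changes 5 were below 0.

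Transcripts of the sort antigens and of other cell types differed between the same libraries. Ly6a, which encodes Sca1, the antigen of fibro-adipogenic progenitors that the sort removed, had 29, 22, 44 and 18 reads in Cox10-/- replicates 1 to 4 and 10, 11 and 19 reads in wild-type replicates 1, 3 and 4. In wild-type replicate 2 it stood at the floor of the table, a CPM of 1 or less. It rose by 1.83 ± 0.47 (limma adjusted p = 0.0202), a call lost without Cox10-/- replicate 3 (0.0692), with 2 means per genotype (0.0581), without the shallowest library of each genotype (0.0618) and in a test of whole reads by voom (0.124, the highest of its alternatives, which began at 0.00438). Pdgfra had 1351 to 2227 reads in the same Cox10-/- libraries and 623 to 1920 in the wild-type ones. Cd34 was not called (-0.26 ± 0.11; adjusted p = 0.136).

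Endothelial markers had 7 rises, 1 fall and 18 uncalled genes among 26, with a median log2 fold change of 0.81. Some of them lay near the floor in wild-type libraries and passed the filter mostly through the Cox10-/- libraries. Ly6c1, counted as a rise, stood at 0, 0, 0 and 0.58 log2 CPM in wild-type replicates 1 to 4. Sox17, also a rise, and the uncalled Cldn5 had wild-type means of 0.12 and 0.04 log2 CPM. The list's counts and median are limited by this. Their summed level was 609 to 708 CPM in Cox10-/- and 471 to 579 CPM in wild-type libraries. Pecam1, which encodes the sort antigen CD31, had 112, 118, 90 and 23 reads in Cox10-/- libraries and 71, 14, 31 and 27 in wild-type libraries, with overlapping levels. Its log2 fold change of 1.39 ± 0.37 (limma adjusted p = 0.024) was no longer called when Cox10-/- replicate 1, 2 or 3 or wild-type replicate 2, 3 or 4 was left out, and 0.0761, without Cox10-/- replicate 3, was the highest adjusted p. Of 25 immune markers 6 were analysed, and limma called none of them (1 at an unadjusted p under 0.05, and none by voom). They summed to 29 to 63 CPM in Cox10-/- and 32 to 38 CPM in wild-type libraries. Among 10 Schwann cell and glial markers 1 was higher, 1 lower and 8 not called, with sums of 323 to 673 CPM in Cox10-/- and 318 to 614 CPM in wild-type libraries. Of 10 adipocyte markers 4 were analysed, and Adipoq, Plin1, Cidec, Lep, Cfd and Retn were not among them. Only Plin4, a lipid droplet protein gene, was called higher, with a mean of 122 CPM in Cox10-/- and 35.1 CPM in wild-type libraries. Lpl averaged 216 and 180 CPM and was not called (0.25 ± 0.19, limma adjusted p = 0.385). The 4 summed to 298 to 399 CPM in Cox10-/- and 173 to 260 CPM in wild-type libraries, a separation that includes the rise of Plin4. The levels of Lpl, the most abundant of the 4, overlapped, at 7.31 to 8.11 log2 CPM in Cox10-/- and 7.18 to 7.78 in wild-type libraries. Pax7, the factor that defines muscle stem cells, stood at 7.52, 7.44, 7.20 and 7.15 log2 CPM in Cox10-/- libraries and 8.72, 8.77, 8.45 and 8.52 in wild-type libraries, and fell by 1.29 ± 0.11 (limma adjusted p = 1.9e-05). Muscle stem cell genes had 13 falls and 9 uncalled genes among 22, and summed to 3585 to 3753 CPM in Cox10-/- and 5253 to 6430 CPM in wild-type libraries. The part of these other cell types in the levels of the 10 transcripts was not tested.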

How the data were processed

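Per the submitters' processing notes, the tools were HISAT2, featureCounts, Trim Galore and DESeq2, and the build was mm9. Not given in the sources used here are their versions, the strand setting and the rule for multiply matching reads. In the deposited table values are log2 CPM per gene and library, rounded by the authors to 2 decimals, with every CPM of 1 or less at 0. The table holds 17847 gene rows and 1054 rows without a gene. Low values were whole multiples of 1 read (100% within 0.1 of a whole number, up to 20 reads), which gave 1693349 to 4650051 reads per library.

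Genotypes were compared on the deposited log2 values with limma 3.58.1 in R 4.3.3: genotype alone, a variance trend, genes above 0 in at least 4 of 8 libraries, and Benjamini-Hochberg adjustment over 17801 genes at a threshold of 0.05. Exact permutation tests used 70 assignments. ± after a fold change is the standard error and the interval is 95%. The fit was tested on simulated data. Alternatives changed filter, pseudocount, centring, variance trend, batch-like terms and libraries; a test of recovered reads by voom and a fit without the shallowest libraries were added after the data were seen. The transcripts and gene lists were chosen with earlier results of these data known. Named genes were the 10 transcripts, Cox10, sort antigens, fixed defining markers, up to 4 genes per list with the smallest p, and the 3 most alike in deviation; not all are described. Myl9, Smtn, Mylk, Tpm1, Angpt1, Sox17 and Cldn5 were named after their values were seen. Promoter sequences are from RefSeq (GRCm38.p6), and overlaps from GENCODE M21.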

Additional observations from a re-analysis of the deposited data

How the results depend on the processing

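Of the 10 transcripts, none changed sign in any of the 18 refits. Of all genes, 1349 were higher and 1514 lower. When replicates 1 and 2 were averaged, and likewise 3 and 4, leaving 2 samples per genotype, these were 445 and 413 (2 and 0 of the 10 transcripts, against 4 and 3). Without 1 library they spanned 847 to 1412 and 932 to 1702, and 3 to 4 and 1 to 3 of the 10. Rises numbered 847 without Cox10-/- replicate 3, and falls 963, 932, 964 and 1002 without that library and without wild-type replicates 1, 3 and 4, while the falls among the 10 were 1 without Cox10-/- replicate 2 or 3. The 3 falls became 1 after median centring and 0 without a variance trend. Rises made up 47.1% of calls as deposited and 58.4% after median centring.

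With a replicate block 1573 genes were higher and 1628 lower, and 4 and 3 of the 10 transcripts. No label says whether the shared numbers pair the samples, and correlations this weak cannot settle it. Deviations of same-numbered libraries correlated at 0.045, 0.137, 0.109 and 0.13 for replicates 1 to 4. Cox10-/- replicates 1 and 4 correlated best with their own number. Cox10-/- replicate 2 did so with wild-type replicate 1 (0.165), and Cox10-/- replicate 3 with wild-type replicate 4 (0.152). No call of the 10 transcripts changed under the block. Rgs5 (adjusted p = 0.00991) and Srf (0.0396), uncalled without it, passed under the block.

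Some uncalled genes turned sign. Without 1 library, Pdgfc spanned -0.14 to 0.11, Col1a1 -0.07 to 0.35, Col3a1 -0.16 to 0.18 and Zfp65 -0.10 to 0.16. Pdgfc was 0.06 after median centring, 0.02 after upper-quartile centring and 0.01 without the shallowest library of each genotype, and 0.02 to 0.11 in 3 fits without 1 library (Cox10-/- replicate 4, 0.08, and wild-type replicates 3 and 4). Without Cox10-/- replicate 4, Col1a1 was -0.07, Col3a1 -0.16 and Zfp65 -0.10. Without the shallowest libraries, Col3a1 was -0.11 and Zfp65 -0.15, and Zfp65 was also -0.05 by voom, and -0.09 and -0.02 without wild-type replicates 1 and 2. The cause was not tested. Planned count models were not run, since the deposited values are log2 CPM; voom on recovered reads, added after the data were seen, called 1410 higher and 1595 lower. With 4 libraries per genotype, the difference of Dcn (0.33 ± 0.19, interval -0.09 to 0.75) was not resolved. A difference of like size with a smaller standard error was called for Acta2 (-0.36 ± 0.11), though most fits without 1 library lost that call.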
